A study of Rattus norvegicus with 12 samples.

Results

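The response of endothelial cells (ECs) of the ductus arteriosus (DA) to birth was set against the response of ECs of the aorta. For each probe set, the change from F to N in the aorta was subtracted from the change from F to N in the DA, so that a positive difference means a more positive change in the DA. The members were the 11899 probe sets that carried 1 gene symbol and whose mean over the 12 arrays was at or above that of the lys spike, a bacterial control RNA added to every sample. They stood for 11221 gene symbols, out of 26468 probe sets in the table, of which 18690 passed the same signal limit with or without a symbol.

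The DA is the fetal vessel that carries blood from the pulmonary artery to the descending aorta past the lung, and it closes after birth, when arterial oxygen rises, circulating prostaglandin E2 falls and its smooth muscle contracts. ECs sense flow and oxygen, release vasoactive factors such as nitric oxide, endothelin and prostaglandins, and take part in the thickening of the inner wall that seals the vessel. The aorta meets the same hormones and breathing at birth but remains patent, and so it serves here as the reference vessel.

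The 12 arrays formed 4 groups of 3, which were the F group and the N group of each vessel. F animals were Wistar rat fetuses on day 21 of gestation before breathing, and N animals were neonates of the same strain 30 minutes after birth. In the study's methods both were delivered by cesarean section, and no drug or altered allele was given in any group. ECs were sorted as CD31-positive, CD45-negative living cells from vessels dissociated with enzymes, and RNA of many litters was pooled for each array, which makes a pool, not an animal, the replicate. Each gene was read as a log2 signal of the Rat Gene 1.0 ST Array, and 1 unit is a 2-fold change. Array medians ran from 5.63 to 5.76, and the lys spike read between 3.41 and 6.17. The spike was high on arrays of replicate number 1 and low on those of number 3, and arrays with the same number deviated from their group means together. Values with the replicate number as a block, called the paired fit, are therefore given beside counts that they move. The 15 endothelial markers measured had a summed signal of 28578 to 31078 in aorta F, 29783 to 30990 in aorta N, 26520 to 27853 in DA F and 27027 to 28399 in DA N.

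No gene passed the test for a response to birth that differed between the vessels. In limma, 0 of the 18690 probe sets tested (0%) reached an adjusted p under 0.05, and 0 did so in the paired fit, where the lowest adjusted p was 0.999. Without adjustment, 25 members were higher in the DA response at p under 0.05 (0.21% of members), next to 0.273% of all probe sets tested, and 63 were lower (0.529%), next to 0.658%. In the paired fit, these counts were 214 higher (1.8%, next to 1.79%) and 205 lower (1.72%, next to 2.31%). The split depended on the scaling, since quantile normalization gave 44 higher and 67 lower and median centring gave 32 and 48.

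The 3 arrays per group and the choice of fit set how small a difference could be seen. The differences of the members had a median of 0.03 and an SD of 0.17. The median SE was 0.23 in the unpaired fit and 0.16 in the paired fit. The intervals given here are those of the unpaired fit and were not counted for the paired fit. Of the members, 95% lay between −0.35 and 0.35. A difference of 2-fold or more was found in 2 members (0.0168%, next to 0.0375% of all probe sets tested), and both were globin genes. The 95% interval lay inside a 2-fold change in either direction for 10803 members (90.8%), and inside a 1.5-fold change for 4913 (41.3%). A difference of 2-fold or more therefore lay outside the interval for most members, whereas one of 1.5-fold lay outside it for fewer than 1 in 2 of them. The spread of the difference was smaller than that between vessels, whose difference averaged over F and N had an SD of 0.28.

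Dim and bright members did not spread alike. The 3522 members with a mean signal under 6 had a median difference of −0.04 and an SD of 0.21, and 50 of them were lower and 10 higher at an unadjusted p under 0.05 (160 and 51 in the paired fit). The 927 members at 10 or above had a median of 0.06 and an SD of 0.11, with 1 lower and 4 higher (2 and 6). In between, the 4421 members from 6 to 8 had a median of 0.04, with 7 lower and 9 higher (32 and 107 in the paired fit), and the 3029 from 8 to 10 had a median of 0.06, with 5 lower and 2 higher (11 and 50). Of the 63 lower members, 58 had opposite signs in the 2 vessels, with a median DA change of −0.28 and a median aortic change of 0.26, and their median signal was 5.19.

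**Figure D1:**
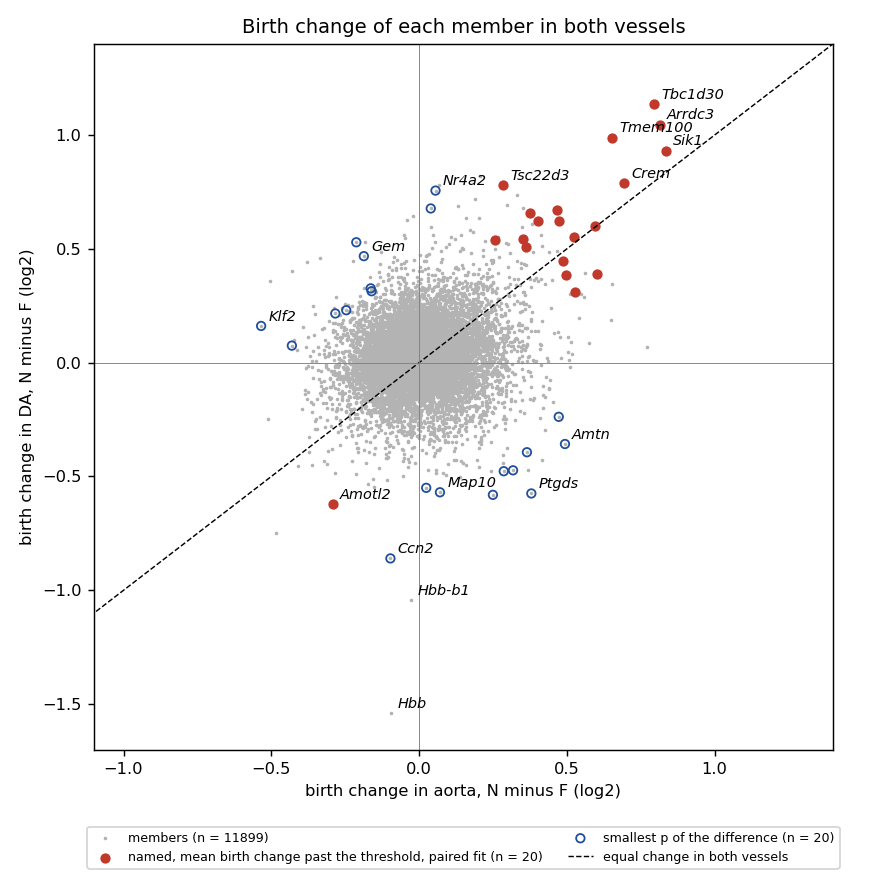
Birth change (N minus F, log2) of each of the 11899 members in the aorta (horizontal) and in the DA (vertical), with the line of equal change. Filled red points are the 20 named genes whose mean birth change passed in the paired fit, 19 of them in the upper right and Amotl2 in the lower left, and open blue points are the 20 members with the smallest p of the difference.

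Genes called for a change at birth over both vessels were mostly higher in N. Averaged over the DA and the aorta, a contrast chosen after the values were seen, the birth change passed in 2 probe sets (Sik1 and Tbc1d30) and in 23 in the paired fit (0.123% of those tested), of which 22 rose and 1 fell. Choosing genes by this mean favours those with the same sign in both vessels, so that the equal sign of all 23 is a description and not a test. Of the 23, 0 passed the test of the difference, and 5 reached an unadjusted p under 0.05 for it in the paired fit. The change was larger in the DA in 16 of the 23. Their median DA change was 0.60 and their median aortic change 0.52, and the 95% interval of the difference lay inside 2-fold for 20 of them. The count rests on the pairing and on all arrays. It was 25 without the first DA F array, 55 without the third DA F array and 7 to 11 without any other single array, and it was 3 without replicate number 1, 0 without number 2 and 27 without number 3. Of the 23, 16 were among the 25 and 21 among the 55, but 7 were among the 27. All 23 kept the sign of their mean birth change each time.

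Separation of the arrays did not use that mean. In 53 members (0.445%, next to 0.407% of all probe sets tested) every N array lay above every F array in both vessels, and in 19 (0.16%, next to 0.118%) every N array lay below. In 9 members (0.0756%, next to 0.118%) the arrays were separated in opposite directions in the 2 vessels.

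Tbc1d30, a GTPase-activating protein for Rab proteins, had the largest mean birth change of those called. Its name comes from the study's tables, since the platform table gives that probe set none. In the aorta, the 3 arrays read 7.53, 7.45 and 7.33 in F and 8.29, 8.27 and 8.13 in N. In the DA, they read 6.60, 6.34 and 6.34 in F and 7.76, 7.54 and 7.39 in N. All N arrays lay above all F arrays in both vessels, and the vessels did not overlap in F. It rose 2.20-fold in the DA and 1.74-fold in the aorta, and the difference of 0.34 ± 0.18 (SE, 3 arrays per group) had a 95% interval of −0.06 to 0.74. It was the 1 probe set whose DA change passed in the unpaired fit (adjusted p = 0.026). In that fit 0 probe sets passed without the second DA F array, and the same held without several other single arrays. In the paired fit Tbc1d30 passed in each vessel (adjusted p = 0.00058 in the DA and 0.025 in the aorta). On linear signals its difference had the other sign, at −23.9 ± 19.3 signal units.

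Arrdc3 encodes an arrestin-domain protein that directs the trafficking of adrenergic receptors. Its aortic arrays read 8.94, 8.46 and 8.40 in F and 9.68, 9.46 and 9.11 in N. Its DA arrays read 8.82, 8.70 and 8.57 in F and 10.06, 9.73 and 9.44 in N. The groups were separated in both vessels, with a 2.07-fold rise in the DA and 1.76-fold in the aorta. The difference was 0.23 ± 0.28 with an interval of −0.38 to 0.84, and leaving out 1 array moved it between 0.06 and 0.38. It passed in each vessel in the paired fit (adjusted p = 0.0034 in the DA and 0.035 in the aorta).

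Sik1 encodes a salt-inducible kinase, which is switched on by cyclic AMP signalling and restrains the coactivators of CREB. Its aortic arrays read 9.56, 9.71 and 9.64 in F and 10.40, 10.50 and 10.51 in N, and its DA arrays read 9.44, 8.98 and 9.20 in F and 9.998, 10.21 and 10.21 in N. The groups were separated in both vessels. The DA arrays changed by 0.93 and the aortic arrays by 0.84, and the difference of 0.09 ± 0.19 had no stable sign when single arrays were left out (−0.02 to 0.21).

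Crem and Pde4b, which also take part in cyclic AMP signalling, were among the risers too. Crem, a transcription factor of the CREB family with an inducible repressor form, changed by 0.79 in the DA and 0.69 in the aorta, with a difference of 0.10 ± 0.31. Pde4b, a phosphodiesterase that breaks down cyclic AMP, changed by 0.51 and 0.36. In the list of cyclic AMP-responsive and arrestin-domain genes, 18 of the 25 measured had a positive change in the DA and 21 in the aorta. Of the 11899 members, 7043 had a positive change in the DA and 5836 in the aorta. Cited2, a coregulator of CBP and p300, went the other way, with changes of −0.28 and −0.30. Of the 25, 16 had a positive and 9 a negative difference, with a median of 0.04, next to 0.03 over all members. Under quantile normalization the list's median was −0.02 with 12 positive, so that it had no settled sign.

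Genes known to respond to glucocorticoids and to cell stress were also among the risers. Tsc22d3, which encodes the glucocorticoid-induced leucine zipper protein, differed most between the vessels of the 23. Its DA arrays read 7.84, 7.52 and 7.43 in F and 8.79, 8.33 and 8.01 in N, against 8.65, 8.37 and 8.26 and then 8.86, 8.74 and 8.53 in the aorta. The DA arrays were separated and the aortic arrays overlapped. The DA change was 0.78 and the aortic change 0.28, and the difference of 0.49 ± 0.28 had an interval of −0.11 to 1.10. The level of the DA minus that of the aorta was −0.83 in F and −0.33 in N. Ddit4, an inhibitor of the growth kinase mTORC1, changed by 0.66 in the DA and 0.37 in the aorta. Errfi1, an inhibitor of the epidermal growth factor receptor, changed by 0.54 and 0.26. In the list of 19 glucocorticoid-responsive genes, 17 had a positive DA change and 17 a positive aortic change (7043 and 5836 of the 11899 members did), 12 had a positive difference, and the median difference was 0.09, which was −0.11 in replicate number 1, 0.36 in number 2 and 0.06 in number 3.

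The remaining named risers covered several functions. Txnip, which binds and inhibits thioredoxin, changed by 0.67 in the DA and 0.47 in the aorta. Plat, the tissue plasminogen activator, changed by 0.55 and 0.52, and its higher level in the DA was 1.27 in F and 1.30 in N. Map3k6, a kinase of the stress pathway, changed by 0.60 and 0.59, and its difference of 0.0042 ± 0.17 was the smallest of the 23. Tmem100, an endothelial membrane protein under BMP control, changed by 0.99 and 0.65, with a difference of 0.33 ± 0.28. Mthfd2, an enzyme of mitochondrial folate metabolism, changed by 0.62 and 0.40. Prickle1, of the planar polarity pathway, changed by 0.54 and 0.35, and Ppp2r5b, a regulatory subunit of protein phosphatase 2A, by 0.62 and 0.47. In Dcxr, Gpr146, Cln8 and Rnf24, the change was larger in the aorta, with differences of −0.22, −0.21, −0.12 and −0.04.

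The 1 gene that fell was Amotl2, an angiomotin family protein of cell junctions and a target of the YAP pathway. Its DA arrays read 9.25, 9.38 and 9.39 in F and 8.82, 8.75 and 8.59 in N, and its aortic arrays read 9.15, 9.31 and 9.12 in F and 9.02, 8.89 and 8.80 in N. All N arrays lay below all F arrays in both vessels. It fell by 0.62 in the DA and by 0.29 in the aorta, and the difference was −0.33 ± 0.16 with an interval of −0.68 to 0.03.

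**Figure D2:**
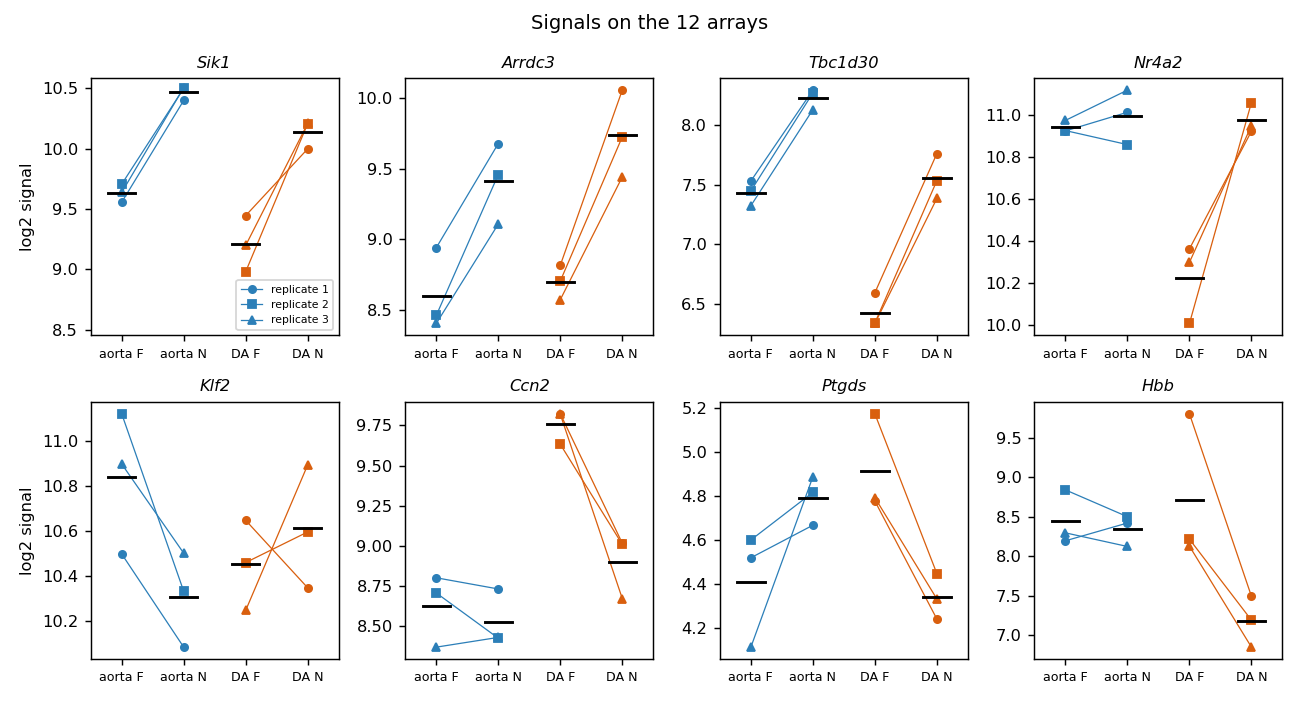
Log2 signal (vertical) on the 12 arrays for 8 genes in aorta F, aorta N, DA F and DA N, with black bars for group means and lines joining arrays of the same replicate number. Sik1, Arrdc3 and Tbc1d30 are higher in N in both vessels, Nr4a2 is higher in N in the DA alone, where it meets the aortic level, and Ccn2 is lower in N in the DA.

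Among the 26 probe sets of the study's table of genes that changed between stages in the DA, to which Arrdc3 was added, 21 had a positive and 5 a negative difference. That table was drawn from these samples and on the DA change, so that the lean of the difference is not independent evidence. The aorta had the same sign as the DA in 22 of the 26, none passed the test of the difference, and 3 reached an unadjusted p under 0.05 (Ccn2, Itprip and RGD1565338), or 6 in the paired fit. The interval lay inside 2-fold for 25 of the 26, and Ccn2 was the exception.

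Ccn2, also called Ctgf, encodes a secreted matrix protein that is a classical target of YAP and TEAD and of TGF-beta. Its DA arrays read 9.82, 9.63 and 9.82 in F and 9.02, 9.01 and 8.67 in N. Its aortic arrays read 8.80, 8.71 and 8.37 in F and 8.73, 8.42 and 8.43 in N. The F and N arrays of the DA did not overlap, and those of the aorta did. The DA arrays lay above all aortic arrays in F and overlapped them in N. The change was −0.86 in the DA (adjusted p = 0.44, and 0.024 in the paired fit) and −0.10 in the aorta. The difference was −0.76 ± 0.22 (95% interval −1.23 to −0.29), with −0.74, −0.34 and −1.21 in the 3 replicate numbers, and it lay between −0.85 and −0.64 when single arrays were left out. It did not pass after adjustment, and Ccn2 was also among the members chosen by small p and equal sign in the 3 replicate numbers. The level in the DA stood 1.13 above that in the aorta in F (adjusted p = 0.00086) and 0.37 above it in N (adjusted p = 0.36).

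Nr4a2 is an orphan nuclear receptor of the NR4A family, which is induced within minutes to hours by many signals that include cyclic AMP. Of the members with a mean signal of 10 or more, it had the smallest p of the difference. In the DA its arrays read 10.36, 10.01 and 10.30 in F and 10.92, 11.06 and 10.95 in N, and in the aorta 10.93, 10.93 and 10.98 in F and 11.01, 10.86 and 11.12 in N. The DA F arrays lay below the 9 other arrays, which spanned 10.86 to 11.12. The change was 0.76 in the DA (adjusted p = 0.29, and 0.030 in the paired fit) and 0.06 in the aorta. The difference was 0.70 ± 0.17 (95% interval 0.32 to 1.08), positive in 3 of 3 replicate numbers and between 0.59 and 0.77 without single arrays. It did not pass after adjustment. Nr4a2 was named for its small p and its equal sign in all 3 replicate numbers, so that its interval and signs are no separate support. The level of the DA minus that of the aorta was −0.72 in F (adjusted p = 0.0045) and −0.02 in N (adjusted p = 1).

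The stretches of 250 bases that end at the RefSeq start of Ccn2, Nr4a2 and Sik1 in the GRCr8 assembly are shown. Ccn2 and Nr4a2 were picked as examples of a DA change with little aortic change, and Sik1 of a change in both vessels. The test of the difference was passed by none of these 3 genes. All 3 are on the minus strand, at chr1:22624615-22624864, chr3:62104888-62105137 and chr20:9958647-9958896, and are written 5′ to 3′ on that strand. Capitals mark the TEAD motif GGAATG in Ccn2 and the cyclic AMP response element (CRE) half-site TGACG in Nr4a2 and Sik1, where Sik1 holds its reverse complement.
Ccn2: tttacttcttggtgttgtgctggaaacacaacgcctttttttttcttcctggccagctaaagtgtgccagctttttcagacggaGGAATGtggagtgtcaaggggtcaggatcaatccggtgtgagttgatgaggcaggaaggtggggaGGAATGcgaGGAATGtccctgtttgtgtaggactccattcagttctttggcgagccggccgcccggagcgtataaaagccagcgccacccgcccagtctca
Nr4a2: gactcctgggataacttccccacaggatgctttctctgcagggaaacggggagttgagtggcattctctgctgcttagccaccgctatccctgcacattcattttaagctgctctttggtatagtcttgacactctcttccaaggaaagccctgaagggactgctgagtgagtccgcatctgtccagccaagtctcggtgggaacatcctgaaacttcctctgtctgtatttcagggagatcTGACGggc
Sik1: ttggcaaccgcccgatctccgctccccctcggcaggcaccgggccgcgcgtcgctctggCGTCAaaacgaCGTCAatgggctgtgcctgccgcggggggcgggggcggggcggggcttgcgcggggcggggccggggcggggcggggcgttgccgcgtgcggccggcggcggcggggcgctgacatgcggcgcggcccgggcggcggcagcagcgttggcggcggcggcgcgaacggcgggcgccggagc

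In the Ccn2 stretch GGAATG began 166, 101 and 92 bases before the start. Of the 33469 windows of 300 bases, from 250 before to 50 after each start, 14.2% held GGAATG on either strand, and 0.0956% held at least 3 copies. In Nr4a2 the half-site began 8 bases before the start, and in Sik1 it began 191 and 180 bases before it, while 21.2% of all windows held TGACG or its reverse complement, and 4.96% held at least 2 copies. For 15 of the named genes with a mean birth change that passed, a window was matched by symbol, and 4 of these (26.7%) held the half-site, 0 the full CRE TGACGTCA (1.83% of all windows), 4 the hypoxia response element ACGTG (19.3%), 1 GGAATG and 0 the AP-1 motif TGACTCA (4.63%). Over all 44 genes looked up that had a window, 6 (13.6%) held GGAATG and 13 (29.5%) the half-site. Where a gene had more than 1 window, the first alone was read. Crem and Tsc22d3 had 3 windows each and Pde4b had 2, so that motifs at their other starts were not counted. The half-site lies within the full CRE. These matches describe the letters of the windows, and their use was not measured.

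The other members with the smallest p on the positive side varied in their signal and in the vessel that changed. Klf2, a transcription factor that shear stress induces in ECs, stood at 10.65, 10.46 and 10.25 in DA F and 10.35, 10.60 and 10.89 in DA N. In the aorta it stood at 10.50, 11.12 and 10.90 in F and 10.08, 10.33 and 10.50 in N. The groups overlapped in the DA, and in the aorta the lowest F array and the highest N array both read 10.50. The DA change was 0.16 and the aortic change −0.53, and the difference of 0.70 ± 0.27 was 0.11, 0.93 and 1.05 in the 3 replicate numbers. Gem, a small GTPase that binds calcium channel subunits, had DA N arrays at 7.41, 7.51 and 7.17, above DA F arrays at 7.17, 7.07 and 6.46, and aortic N arrays at 6.91, 6.79 and 6.92, below F arrays at 7.15, 6.96 and 7.06. The lowest DA N array and the highest DA F array were equal to 2 decimals. Its difference was 0.65 ± 0.24, and 0.44 to 0.79 without single arrays. Cep85l, a centrosomal protein, had a DA change of 0.68 and an aortic change of 0.04, with differences of 0.69, 0.58 and 0.64 in the 3 replicate numbers. Fibin, a secreted protein, was dim, with a mean of 5.0, a DA change of 0.53 and an aortic change of −0.21. Stac3, Ogfod1, Mrpl40, Tshr and Myoc, the 5 others on this side, had differences from 0.47 to 0.51.

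On the negative side, Ptgds had the smallest p of all members. It encodes a prostaglandin D2 synthase. Its DA arrays read 4.78, 5.18 and 4.79 in F and 4.24, 4.45 and 4.33 in N, and its aortic arrays 4.52, 4.60 and 4.11 in F and 4.67, 4.82 and 4.89 in N. The DA arrays were lower in N and the aortic arrays higher, without overlap in either vessel. The difference was −0.95 ± 0.22 (95% interval −1.43 to −0.48), with an adjusted p of 1 in the unpaired fit. The probe set was dim, and on 5 of the 12 arrays it lay below the lys spike of the same array. Xrcc2, a gene of DNA repair, read 6.27, 6.20 and 6.49 in DA F and 5.87, 5.82 and 5.83 in DA N, and 5.87, 5.65 and 5.60 in aorta F and 6.15, 5.87 and 5.96 in aorta N, so that the aortic arrays touched at 5.87 and the DA arrays were separated. Its difference was −0.76 ± 0.18. Rasgrf2, an exchange factor for Ras, differed by −0.83 ± 0.20, with a DA change of −0.58 and an aortic change of 0.25. Map10, Amtn, Tpd52l3, Cyp2d1, Klk12 and Alas2 had differences from −0.85 to −0.57 and mean signals from 4.45 to 5.2, and each lay below the spike on 2 to 6 arrays.

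**Figure D3:**
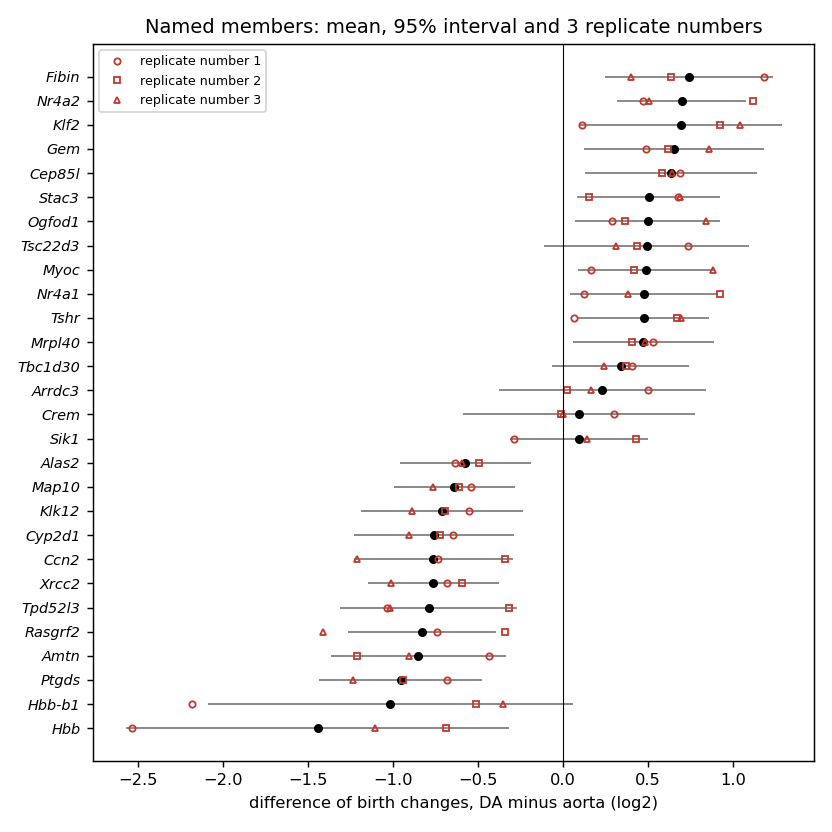
Difference of birth changes (DA minus aorta, log2, horizontal) for 28 named genes, with black points for the fitted value, grey lines for its 95% interval and open red symbols for the value within each replicate number. The 20 genes chosen by their small p and equal sign in all 3 replicate numbers lie to 1 side of 0, as that choice fixes, and the intervals of Sik1, Crem, Arrdc3, Tbc1d30, Tsc22d3 and Hbb-b1 span 0.

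Among members, all of which carry a symbol, the largest differences belonged to red cell genes. Hbb, a beta globin, read 9.80, 8.21 and 8.13 in DA F and 7.49, 7.19 and 6.85 in DA N, against 8.19, 8.84 and 8.29 in aorta F and 8.42, 8.50 and 8.12 in aorta N. The DA N arrays lay below the 9 others, and 1 DA F array stood above all others. The difference was −1.44 ± 0.52, and −0.90 to −1.74 when single arrays were left out, with −0.90 without the first DA F array. Hbb-b1, whose sequence is close to that of Hbb so that the 2 probe sets may read each other's RNA, differed by −1.02 ± 0.49, with −2.19, −0.51 and −0.35 in the 3 replicate numbers, and by −0.52 without the first DA F array. All 5 measured erythroid markers had a negative difference, with a median of −0.57, and all 5 stayed negative under quantile normalization and median centring. The DA change was −1.54 for Hbb, −1.04 for Hbb-b1 and −0.55 for Alas2, but −0.05 for Slc4a1 and 0.03 for Epb42. Slc4a1 and Epb42 had aortic changes of 0.18 and 0.35. Alas2, Slc4a1 and Epb42 were dim, with mean signals of 4.8, 4.7 and 5.2. The summed signal of all 5 erythroid markers, the 2 globin genes included, was 269 to 319 in DA N and 443 to 1198 in DA F. It was 456 to 632 in aorta F and 445 to 532 in aorta N. Both the F and the N arrays came from sorts that removed CD45-positive cells. The part of these markers in the other differences was not tested.

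The other cell type markers had medians nearer to 0. Of 10 smooth muscle markers, 7 had a positive difference with a median of 0.12, and their summed signal was 3374 to 3537 in DA F, 3464 to 4419 in DA N, 2356 to 2743 in aorta F and 2518 to 2788 in aorta N. The 15 endothelial markers had 8 positive differences and a median of 0.05, the 9 fibroblast markers 6 and 0.03, and the 7 leukocyte markers 4 and 0.01. Quantile normalization turned the endothelial and fibroblast medians to −0.02 and −0.03. The 3 mesothelial markers measured had 2 negative differences and a median of −0.21, with a summed signal of 135 to 146 in DA F, 118 to 139 in DA N, 112 to 129 in aorta F and 112 to 124 in aorta N. The 7 cardiomyocyte markers had 5 negative differences and a median of −0.13, with sums of 283 to 304 in DA F, 253 to 334 in DA N, 321 to 365 in aorta F and 322 to 414 in aorta N, and the 2 Schwann markers had a median of −0.01. The summed signal of the leukocyte markers was 380 to 498 in DA F, 363 to 508 in DA N, 442 to 526 in aorta F and 449 to 566 in aorta N. Apart from Cd68 at 8.0, their mean signals were 4.7 to 5.5, next to 4.44 for the lys spike. Mean signals were 4.6 to 6.6 for the cardiomyocyte markers and 4.8 to 5.8 for the mesothelial markers, so that these 3 sums hold many values near that limit. Since these are sorted pools, fewer cells of a type and less RNA per cell cannot be told apart.

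Immediate early genes, the first transcripts that cells make after a stimulus, leaned to the DA. Of the 22 measured, 20 had a positive difference (57.7% of all members did) and the median was 0.15, next to 0.03 over all members and 0.06 over members with a mean signal of 10 or more. Besides Nr4a2, Nr4a1 differed by 0.48 ± 0.20, and these 2 reached an unadjusted p under 0.05, next to 5 in the paired fit. Nr4a1 read 10.57, 10.14 and 10.20 in DA F and 10.80, 11.000 and 11.01 in DA N, and 11.11, 11.13 and 10.95 in aorta F and 11.22, 11.07 and 11.38 in aorta N, so that the DA arrays were separated and the aortic arrays overlapped. Egr3 differed by 0.42 ± 0.27 and Nr4a3 by 0.33 ± 0.19. The median was −0.01 in replicate number 1, 0.30 in number 2 and 0.13 in number 3, and 18 were positive under quantile normalization and 21 under median centring.

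Heat shock genes leaned the same way in all 3 replicate numbers. These encode chaperones that hold proteins in shape. Of 15 measured, 14 had a positive difference, with a median of 0.13 (0.33, 0.09 and 0.12 in the 3 replicate numbers), and 14 were positive under both other scalings. Their median DA change was 0.06 and their median aortic change −0.13. Hspb1, a small chaperone that binds actin, differed most, with 10.06, 9.83 and 9.70 in DA F, 10.27, 10.13 and 10.29 in DA N, 11.31, 10.95 and 10.80 in aorta F and 11.27, 10.77 and 10.71 in aorta N. The DA arrays were separated, the aortic arrays overlapped, and the difference was 0.47 ± 0.25. None of the 15 reached an unadjusted p under 0.05, and Hspb1 did in the paired fit.

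The targets of YAP and TEAD had no settled lean. Of 15 measured, 10 had a negative difference and the median was −0.06, with 11 negative and −0.12 under quantile normalization and 8 and −0.03 under median centring, and the median was −0.09, 0.13 and −0.20 in the 3 replicate numbers. Ccn2 was the 1 member of the list with an unadjusted p under 0.05, joined by Amotl2 in the paired fit. Axl, a receptor tyrosine kinase, differed by −0.20 ± 0.17.

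Lists tied to the closure of the DA had medians close to 0, and single genes lay on both sides. Of 16 prostaglandin genes, 9 were positive and 7 negative, with a median of 0.01. Ptgds was lowest at −0.95, and Ptger3, a receptor of prostaglandin E2, differed by −0.33 ± 0.24. Both were dim, with mean signals of 4.6 and 5.0. Ptger4, the receptor by which prostaglandin E2 keeps the DA open, differed by 0.24 ± 0.21, and Pla2g4a, which frees the arachidonic acid from which prostaglandins are made, by 0.34 ± 0.34. Of 20 nitric oxide and cyclic GMP genes, 11 were positive, with a median of 0.02. Gucy1a1, a subunit of the nitric oxide receptor guanylate cyclase, differed by 0.44 ± 0.21, and Nos2, the inducible nitric oxide synthase, by −0.48 ± 0.22. Nos2 was dim, with a mean signal of 4.9, a DA change of 0.04 and an aortic change of 0.52. Of 11 endothelin and angiotensin genes, 6 were positive, and Edn1, the endothelin made by ECs, differed by −0.17 ± 0.19 with a DA change of −0.34 and an aortic change of −0.18. Of 22 potassium and calcium channel genes, 14 were negative, with a median of −0.04, and Kcnj2, an inward rectifier, differed by 0.36 ± 0.32. Hypoxia-responsive and glycolysis genes had a median of 0.06 over 27, and Egln3, an oxygen-sensing prolyl hydroxylase, differed by 0.29 ± 0.24. The 28 TGF-beta and BMP genes had a median of 0.01, and the 26 genes of the intimal cushion and matrix a median of 0.06 with differences from −0.12 to 0.22. The medians of the prostaglandin, nitric oxide, endothelin, hypoxia and TGF-beta lists were below 0 under quantile normalization (−0.03, −0.02, −0.04, −0.0019 and −0.03). None of these genes passed the test of the difference.

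In the remaining lists the medians were −0.01 for 22 antioxidant genes, 0.06 for 17 inflammatory genes, 0.07 for 22 flow-responsive genes, −0.01 for 22 cell cycle genes and 0.11 for 20 genes of the mitochondrial respiratory chain. The flow-responsive median was −0.0034 under quantile normalization, and the antioxidant and cell cycle medians were 0.03 and 0.02 under median centring. The respiratory chain genes had 16 positive differences, but their median was 0.40 in replicate number 1 and −0.03 and −0.04 in numbers 2 and 3. Il6, a cytokine, differed by 0.53 ± 0.36, with 7.21, 6.29 and 6.14 in DA F, 7.17, 7.52 and 7.11 in DA N, 8.75, 8.41 and 8.19 in aorta F and 8.87, 8.49 and 8.55 in aorta N. The DA arrays overlapped through the first F array, and the DA lay below the aorta on every array. The cell cycle genes had the same median change in both vessels, −0.09.

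**Figure D4:**
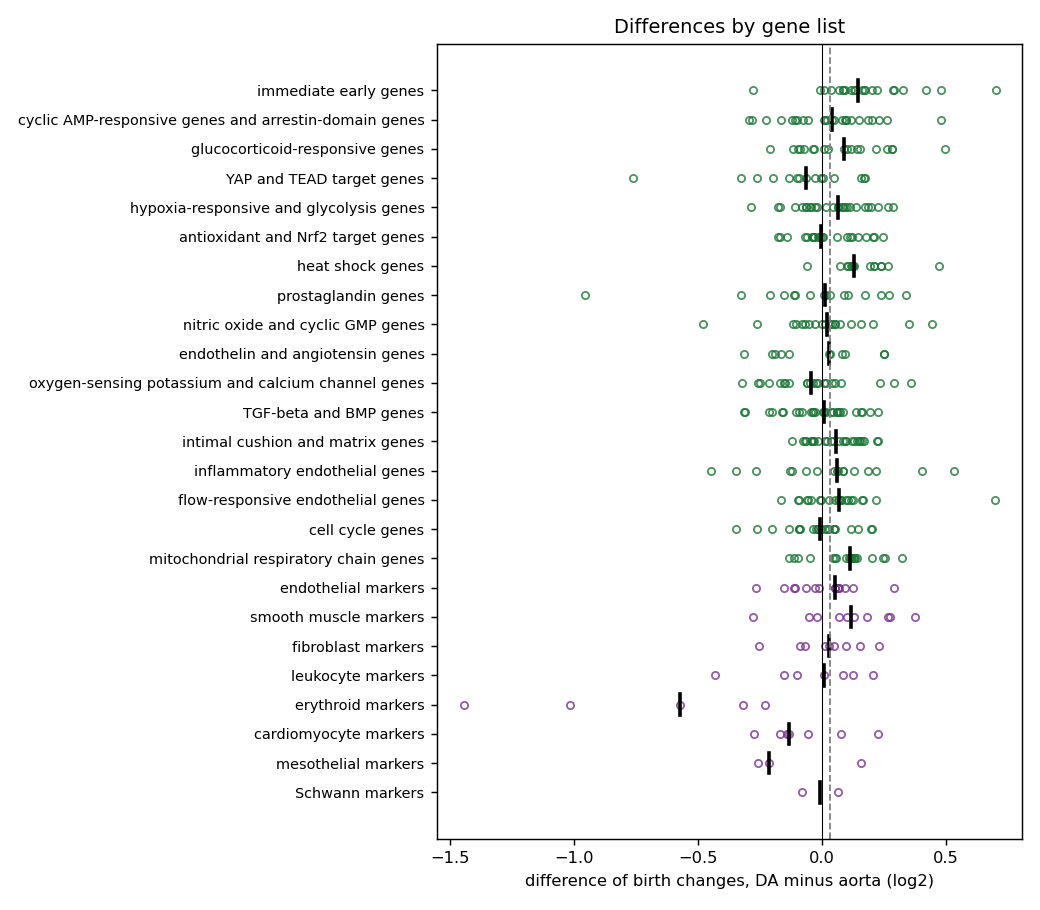
Difference of birth changes (DA minus aorta, log2, horizontal) of each measured gene by list, with green circles for gene groups, purple circles for cell type markers, black bars for the list medians and a dashed line at the median of all members, 0.03. Erythroid markers lie to the left with a median of −0.57, and immediate early and heat shock genes lie mostly to the right with medians of 0.15 and 0.13.

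Genes with a vessel difference were also read for whether that difference held through birth. In F, 515 members (4.33%, next to 3.77% of all probe sets tested) differed between the vessels at an adjusted p under 0.05, and in N 411 did (3.45%, next to 3.14%). Of these, 351 passed in both stages, 164 in F alone and 60 in N alone. Passing in 1 stage alone does not establish a change between stages, and 0 of the 164 and 0 of the 60 passed the test of the difference. At an unadjusted p under 0.05 there were 17 and 5 (32 and 8 in the paired fit). Of all probe sets tested, 0.931% reached it, and 4.1% in the paired fit. The stage tests share arrays with the difference, so that choosing genes by a pass in 1 stage favours a difference.

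By the mean over both stages, 155 members (1.3%, next to 1.31% of all probe sets tested) differed between vessels by at least 2-fold at an adjusted p under 0.05. Of the 71 that were higher in the DA, 49 had a smaller vessel difference in N than in F, and the median shift was −0.12, but it was −0.22, 0.14 and −0.25 in the 3 replicate numbers. Of the 84 that were lower in the DA, 57 had a smaller vessel difference in N, with a median shift of −0.06, and −0.16, −0.04 and 0.09 in the 3 replicate numbers. The sign of the shift thus differed between replicate numbers in both sets. The median vessel difference of the 71 was 1.42 in F and 1.31 in N, and that of the 84, taken as aorta over DA, was 1.32 and 1.25.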

How the data were processed

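ECs sorted from the DA and the aorta of F and N rats were measured on 12 Affymetrix arrays, and the table that the authors deposited holds a log2 signal for each probe set and array. How the signals were summarised and normalized was not given in the sources used here, and no further normalization was applied to the values reported. Probe sets were named from the platform annotation, updated by gene ID in RefSeq tables, and 15307 of 26468 had 1 symbol, 323 several and 10838 none. Those with several or none were tested but not named, apart from 5 probe sets that the study's tables name. Probe sets whose mean was below that of the lys spike (7777) were left out. The members and gene lists were chosen with earlier results of these data known.

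One mean per group was fitted in limma 3.58.1 (R 4.3.3) over all 12 arrays with moderated variances, and p-values were adjusted by Benjamini-Hochberg over the 18690 probe sets tested. The difference of the birth change was the contrast of DA N minus DA F less aorta N minus aorta F. Groups and replicate numbers came from the sample titles, and p-values measure the spread between pools, which may in part be technical. The number of arrays limits the precision. Deviations from the group means correlated between groups by 0.54 to 0.82 for arrays numbered 1, 0.10 to 0.30 for those numbered 2 and 0.39 to 0.74 for those numbered 3, and by −0.74 to 0.37 between different numbers, so that the numbers were taken as pairs, and what they stand for was not stated. The study counts litters by stage, and whether DA and aorta pools of the same number shared litters was not stated. The unpaired fit treats all arrays as independent. The paired fit holds the replicate number as a fixed term.

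Named genes were those of the study's table of genes that changed between stages in the DA, with Arrdc3, the 10 members with the smallest p of the difference in each direction and the same sign in all 3 replicate numbers, up to 4 members of each list by p, and up to 5 members in each direction whose arrays were separated in opposite ways. Those called by the mean birth change were added after the values were seen. Lists held 1 probe set per gene, the study's or else the brightest. Alternatives were other filters, scalings, variance models, array weights, linear signals, the paired fit and leaving out arrays. The fits were run on simulated arrays with planted differences and noise drawn independently for each array. That noise lacked the shared deviations of the replicate numbers, so that the run cannot show how either fit performs on these arrays. Promoter windows came from RefSeq (GRCr8), matched by symbol for 44 of 59 genes looked up.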

Additional observations from a re-analysis of the deposited data

Results flagged for a closer look

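In 9 members the N arrays all lay on one side of the F arrays in the DA and all on the other side in the aorta, and this opposition as such was not tested. The difference of the birth change, DA minus aorta, was −0.95 for Ptgds, −0.85 for Amtn, −0.64 for Map10, −0.54 for Cd247, −0.37 for Star, −0.30 for Slc26a8, −0.25 for Sugp2, 0.16 for Cyth2 and 0.65 for Gem, and none passed limma's test after adjustment. Ptgds, Amtn, Map10, Cd247, Star and Slc26a8 lay below the lys spike of the same array on 5, 6, 3, 5, 2 and 1 of the 12 arrays. Sugp2, Cyth2 and Gem lay above it on every array. Star encodes the carrier of cholesterol into mitochondria for steroid synthesis, Cd247 the zeta chain of the T cell receptor, and Cyth2 an exchange factor for ARF GTPases. In Cyth2 the DA arrays read 9.34, 9.27 and 9.34 in F and 9.41, 9.35 and 9.40 in N, and the aortic arrays read 9.38, 9.50 and 9.43 in F and 9.34, 9.32 and 9.37 in N. Its groups were separated, but by margins smaller than the SE of its difference, 0.14.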

How the results depend on the processing

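The difference of the birth change was called in 0 probe sets under all 27 alternatives, among them the paired fit with the replicate block, quantile normalization, array weights and leaving out any array or replicate number. The lowest adjusted p of a named gene under any of them was 0.60. The number of members at an unadjusted p under 0.05 (88 in the reported fit) was 419 with the replicate block and 496 with array weights, 49 with the stricter filter, 180 with no filter, 148 with no moderation and 65 to 160 without single arrays. In the replicate block fit, 10 probe sets were called for the birth change in the DA (1 without the block), 3 in the aorta (0 without), 1951 for the vessel difference in F (705), 1358 in N (586) and 23 for the mean birth change (2). Without single arrays, the DA birth change was called in 0 to 4 probe sets, with 4 without the first DA F array and 0 without 8 others, and the vessel difference in N in 318 to 583, with 318, 344 and 371 without DA N 2, aorta N 1 and aorta N 2. The mean birth change in the paired fit was called in 8 probe sets with no filter and 12 after quantile normalization. Of 3886 values of named genes under an alternative, 81 changed sign, 74 of them where the reported value lay within 1 SE of 0. The other 7 were Gdf6 (0.093), Pla2g4a (−0.066) and Tmem100 (−0.074) with array weights, Tbc1d30 on linear signals (−23.9 signal units), and Axl, Cxcl10 and Ptx3, which ranged over the 3 fits that left out 1 replicate number from −0.36 to 0.022, from −0.61 to 0.047 and from −0.74 to 0.037, with the highest values without replicate 3. The cause of these changes was not tested. Leaving out replicate numbers, the block with quantile normalization and the mean birth change were chosen after seeing the data. The median SE in the unpaired fit was 0.25 for members with a mean signal under 6 and 0.24 from 6 to 8. It was 0.21 from 8 to 10 and 0.19 at 10 or above. The 95% interval of the unpaired fit lay inside a 1.5-fold difference for 41.3% of members.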

Other observations

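Of the 23 probe sets called by the mean birth change in the paired fit, 3 carry no symbol here. They rose by 0.51, 0.59 and 0.81 in the DA and by 0.85, 0.99 and 0.83 in the aorta, so that their differences were −0.33, −0.40 and −0.02. Of the 7 probe sets with a difference of at least 2-fold, 5 carry no symbol.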
